A study of Mus musculus with 19 samples.

Results

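Intercalated cells are the minority cells of the kidney's connecting tubule and collecting duct that set the final acid content of urine. Type A cells pump protons into the urine through a V-ATPase, a multi-subunit proton pump, and return bicarbonate to the blood. Type B cells secrete bicarbonate into the urine, and the transcription factor Foxi1 is required for both kinds of cell to form. The 10 genes examined here carry out or direct that work. None of them passed the test for a different RNA level between kidneys of mice without macroH2A1.1 and wild-type kidneys, and with all kidneys in the edgeR fit all 10 intervals of the fold change stayed inside 1.5-fold in either direction.

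The 10 genes were chosen by name, as proton pump subunits, anion exchangers, an ammonia channel and regulators of intercalated cells. Their values were not the criterion, but earlier results of these data were known when the choice was made. The 10 are Atp6v1b1, Atp6v1g3, Atp6v0a4, Atp6v0d2, Rhcg, Slc4a1, Slc26a4, Slc4a9, Foxi1 and Dmrt2. All 10 were found among the 26506 genes of the count table. H2afy encodes the histone variant macroH2A1, and macroH2A1.1 is the product of one of its splice forms, with a macrodomain that binds ADP-ribose. Knockout (KO) mice carried a whole-body, homozygous deletion of exon 6b, the alternative exon of that isoform, made by treating zygotes that held a floxed allele with soluble Cre enzyme. Wild-type (WT) mice came from matings of heterozygotes of the same stock, and all mice were males on a C57BL/6J background after at least 10 generations of backcrossing. Whole kidney was profiled from 5 KO and 5 WT mice, and whole liver from 5 KO and 4 WT mice, by sequencing poly(A)-selected RNA. The mice are called here by the numbers in their labels, KO 13, 14, 15, 16 and 18 and WT 19, 20, 22, 23 and 24, and the liver of WT 23 was not analysed here. The housing notes name a standard and a ketogenic diet, and the diet and age of each mouse and any sequencing batch were not given in the sources used here. Separate animals are implied by those numbers but not stated, so the p-values reflect the spread from library to library.

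The libraries held 25919138 to 35131720 counts in kidney and 26084473 to 34806035 counts in liver. Levels are CPM, counts scaled to a common library size by TMM. Umod, the uromodulin gene of the thick ascending limb, stood at 1959 to 3333 CPM in the kidneys and at most 0.0299 CPM in the livers. H2afy, which still yields the other splice isoform in KO mice, stood at 49.0 to 61.1 CPM in KO kidneys and 65.6 to 90.8 CPM in WT kidneys, a log2 fold change of -0.58 (edgeR adjusted p = 0.136). It passed with the same libraries by DESeq2 (adjusted p = 9.14e-05), by limma voom (adjusted p = 0.0306) and by edgeR with no filter on low counts (adjusted p = 0.0390). It did not pass in edgeR with DESeq2 size factors (adjusted p = 0.114), library totals (adjusted p = 0.160) or a filter of 1 CPM (adjusted p = 0.140). Nor did it pass without mitochondrial and haemoglobin genes (edgeR adjusted p = 0.138) or with kidney and liver fitted together. A pair of libraries stood apart. WT 24 held 65.6 CPM of H2afy, against 82.4 to 90.8 CPM in the other WT kidneys. Without it H2afy passed in edgeR, with a log2 fold change of -0.65 (edgeR adjusted p = 0.00679). WT 24 was singled out by its low H2afy level, so that smaller p adds no support. Leaving out any other single mouse gave an edgeR adjusted p of 0.0724 to 0.456 for H2afy. The H2afy level of WT 24 lay nearer to the KO kidneys than to the other WT kidneys. In liver, H2afy stood at 42.9 to 52.9 CPM in KO and 53.5 to 86.4 CPM in WT, with WT 24 among the WT livers. Counts per gene do not show the deleted exon, so the genotype of WT 24 was taken from its label and remains in doubt. KO 13 held 41.4 CPM of the albumin gene Alb, against 4.86 to 7.15 CPM in the other KO kidneys and 5.15 to 9.49 CPM in WT kidneys. None of the 10 genes passed the edgeR threshold in kidney with all libraries, without WT 24 or without KO 13.

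Transcription of several of these genes is known to depend on Foxi1, a forkhead protein. Promoters from RefSeq (GRCm38.p6) were found for 7 of the 10 genes, and the 250 bases before the RefSeq start were searched on both strands for the forkhead core letters TGTTTAC and for the shorter TGTTTG. Atp6v1b1, the pump subunit best known as marking intercalated cells, held TGTTTAC on its coding strand, 98 bases before the start (capitals; chr6:83742767-83743016, plus strand). Atp6v1g3, a pump subunit found mainly in these cells, held TGTTTG on the opposite strand, seen as CAAACA 66 bases before the start (capitals; chr1:138273488-138273737, plus strand). Rhcg, the gene that followed the average of the 10 most closely across kidneys, held neither set of letters in this window and is shown for comparison (chr7:79617658-79617907, minus strand, written 5′ to 3′ along the gene).
Atp6v1b1: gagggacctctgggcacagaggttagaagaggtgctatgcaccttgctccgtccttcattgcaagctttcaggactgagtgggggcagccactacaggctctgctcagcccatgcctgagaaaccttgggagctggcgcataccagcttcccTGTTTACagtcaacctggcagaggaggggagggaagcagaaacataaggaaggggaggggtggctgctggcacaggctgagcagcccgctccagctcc
Atp6v1g3: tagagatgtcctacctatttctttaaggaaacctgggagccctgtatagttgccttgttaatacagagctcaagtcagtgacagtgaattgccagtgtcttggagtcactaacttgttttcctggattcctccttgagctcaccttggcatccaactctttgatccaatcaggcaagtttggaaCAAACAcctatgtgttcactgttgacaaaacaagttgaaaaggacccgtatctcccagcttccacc
Rhcg: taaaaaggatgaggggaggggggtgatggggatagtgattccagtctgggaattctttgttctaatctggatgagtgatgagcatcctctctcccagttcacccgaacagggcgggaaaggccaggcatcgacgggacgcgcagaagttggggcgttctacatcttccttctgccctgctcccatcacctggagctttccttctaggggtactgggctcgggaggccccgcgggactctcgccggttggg
TGTTTAC occurred in 3.17% of all 32851 promoter windows of this length and in 1 of the 7 promoters here, and TGTTTG in 16% of all windows and in 1 of the 7. Distances are from the RefSeq start, which for Atp6v1b1 lies downstream of the gene start in the GENCODE annotation used for the gene positions given here. A match is a description of letters and does not show binding.

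The first comparison asked whether loss of macroH2A1.1 was accompanied by a different RNA level of the acid-base genes in kidney. All 10 genes passed the filter on low counts, and 0 of 10 passed the threshold, an edgeR adjusted p under 0.05, where the test called 0.00579% of all 17269 genes. At an unadjusted p under 0.05 it called 2.95% of all genes and again 0 of the 10. The smallest unadjusted p was 0.176, for Slc26a4, and the edgeR adjusted p was 0.9995 for each of the 10. For every one of them the 95% interval of the fold change, KO over WT, lay between 0.819 and 1.43. A change of 1.5-fold or more in either direction lay outside all 10 intervals of this fit. Under the 19 alternatives run, 5 of 190 intervals reached past 1.5-fold, all upward. They were Foxi1 without mice 16 and 24 (up to 1.536-fold) and without KO 13 (1.515-fold), WT 19 (1.506-fold) or WT 20 (1.503-fold), and Dmrt2 with kidney and liver fitted together (1.567-fold). The median log2 fold change of the 10 was 0.05, beside 0.0071 over all genes tested. By sign alone 7 were higher and 3 lower in KO kidneys, and all 10 were higher when libraries were scaled by their totals, so no direction is given for the group. Levels in KO and WT kidneys overlapped for all 10 genes, while 0.562% of all genes had groups that did not overlap. In whole tissue, fewer cells of a type and less RNA per cell cannot be told apart.

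**Figure D1:**
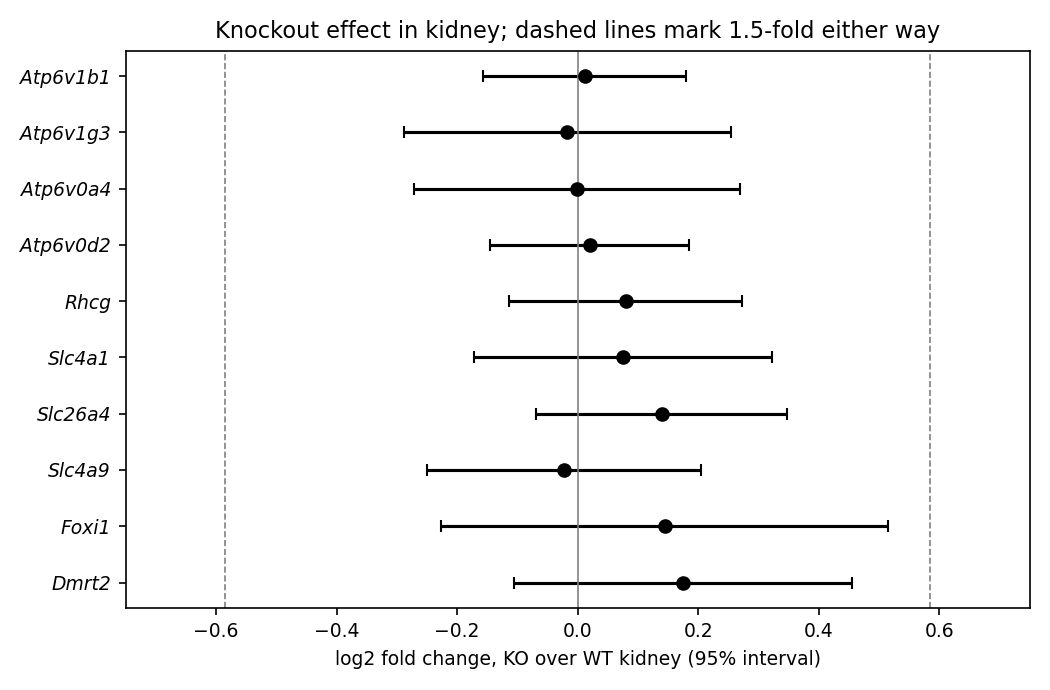
Log2 fold change, KO over WT, of each of the 10 genes in kidney (horizontal axis) with its 95% interval from the edgeR fit; the dashed lines mark a 1.5-fold change in either direction. All 10 intervals cross 0 and lie inside the dashed lines.

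Among the pump subunits, Atp6v1b1 encodes the B1 subunit of the part that hydrolyses ATP, and loss of the human gene causes distal renal tubular acidosis with deafness. The gene lies on chromosome 6 (83742990 to 83758855, plus strand, GRCm38). It stood at 101, 113, 101, 108 and 117 CPM in the KO kidneys 13, 14, 15, 16 and 18. WT kidneys 19, 20, 22, 23 and 24 held 119, 109.5, 107, 102 and 97.4 CPM. The lowest and the highest kidney were both WT, and the KO values lay wholly within the WT range. The means were 107.9 ± 7.07 CPM in KO and 107.0 ± 7.95 CPM in WT (SD, n = 5 each), a log2 fold change of 0.01 (SE 0.08).

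Atp6v1g3 encodes the G3 subunit, part of the stalk that links the pump's catalytic head to its membrane ring, and lies on chromosome 1 (138273738 to 138289462, plus strand). It stood at 49.2, 81.4, 64.9, 49.9 and 57.9 CPM in KO kidneys 13 to 18, in the same order as above. WT kidneys 19 to 24 held 66.5, 70.0, 55.8, 57.4 and 57.0 CPM. KO kidneys spread around the WT values on both sides, with KO 14 the highest and KO 13 the lowest of all 10. The means were 60.6 ± 13.3 CPM in KO and 61.3 ± 6.45 CPM in WT (SD, n = 5 each), and the log2 fold change was -0.02 (SE 0.13).

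Atp6v0a4 encodes the a4 subunit of the membrane sector, the other pump gene whose loss causes distal renal tubular acidosis in humans, and lies on chromosome 6 (38048483 to 38124586, minus strand). It stood at 243, 142, 187, 203 and 195 CPM in the KO kidneys and at 226, 180.1, 181, 164 and 219 CPM in the WT kidneys. KO 13 was the highest and KO 14 the lowest, the reverse of their places for Atp6v1g3. Both means were 194 CPM, with an SD of 36.1 in KO and 26.9 in WT (n = 5 each), and the log2 fold change was -0.0016 (SE 0.13). Tmem213 (1067 to 2399 counts in kidney) on the opposite strand and D630045J12Rik (2185 to 3362 counts) on the same strand overlap the gene. No strand setting of the counting was stated in the sources used here, and reads may be shared between these genes.

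Atp6v0d2 encodes the d2 subunit, which joins the rotating stalk to the membrane ring and is also made by osteoclasts and macrophages. It lies on chromosome 4 (19876841 to 19922605, minus strand). Its levels were the most even of the 10 genes among WT kidneys. They were 35.7, 40.6, 33.4, 36.3 and 35.1 CPM in KO kidneys and 35.3, 35.0, 35.9, 37.3 and 35.0 CPM in WT kidneys. KO kidneys held both the lowest and the highest value. The means were 36.2 ± 2.69 CPM in KO and 35.7 ± 0.979 CPM in WT (SD, n = 5 each), with a log2 fold change of 0.02 (SE 0.08).

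**Figure D2:**
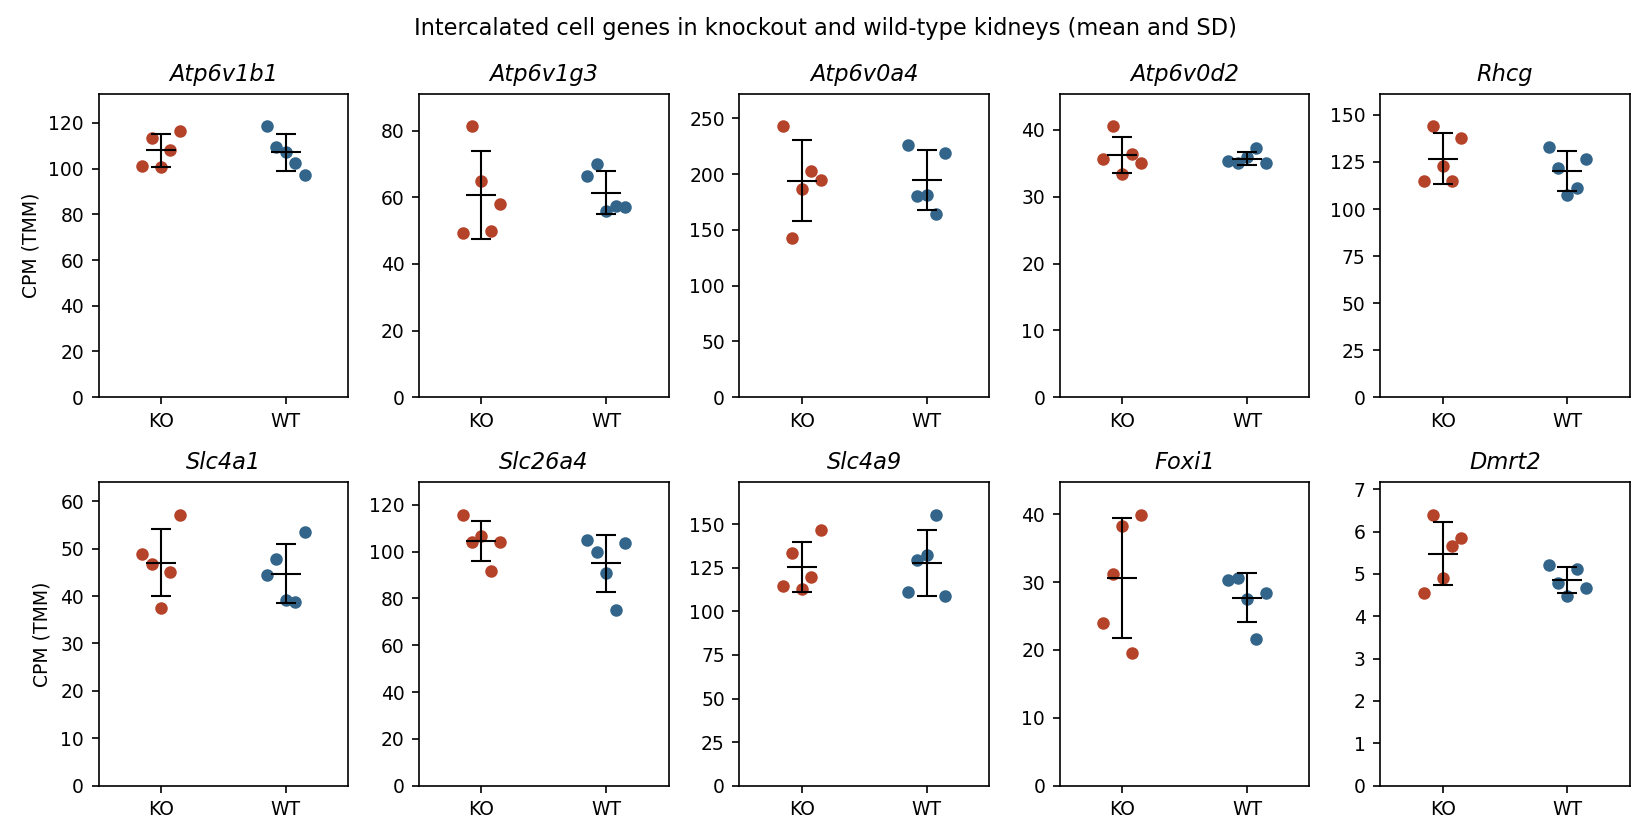
Level of each of the 10 genes in CPM after TMM (vertical axis, from 0) in every kidney, with KO left of WT; points are single kidneys and the bar with its whiskers is the mean ± SD of 5. In every panel the values of KO and WT kidneys overlap, and the SD is larger among KO kidneys for 7 genes and among WT kidneys for 3, Atp6v1b1, Slc26a4 and Slc4a9.

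Each of these 4 subunits has a paralog in use across many cell types, and the ratio of a pair within a library does not depend on scaling between libraries. The counts of the B1 gene were 0.246 to 0.319 times those of the B2 gene Atp6v1b2 in KO kidneys and 0.225 to 0.297 times in WT kidneys. The G3 gene stood at 0.280 to 0.394 times the G1 gene Atp6v1g1 in KO and 0.325 to 0.355 times in WT kidneys. The d2 gene stood at 0.265 to 0.335 times the d1 gene Atp6v0d1 in KO and 0.243 to 0.318 times in WT kidneys. In these 3 pairs the general paralog therefore had the more counts in every kidney. The order was turned round for a4 against a1, where Atp6v0a4 had 2.02 to 3.13 times the counts of Atp6v0a1 in KO kidneys and 2.20 to 3.09 times in WT kidneys. Per kilobase of exon, the same ratio was 2.66 to 4.13 in KO and 2.91 to 4.07 in WT kidneys. That ratio leaves out 2 further paralogs of the a subunit. Atp6v0a2 averaged 64.3 CPM in KO and 68.3 CPM in WT kidneys, and Tcirg1 56.2 CPM in KO and 46.7 CPM in WT kidneys. Atp6v0a4 was not compared with all of its paralogs together, and its counts may include reads of the overlapping genes. The differences in mean log2 ratio, KO minus WT, were 0.03 for B1 over B2, 0.0008 for G3 over G1, 0.10 for d2 over d1 and -0.05 for a4 over a1. None differed by an exact two-sided permutation test over 252 arrangements, with p of 0.778, 0.992, 0.302 and 0.675 in that order and, after Benjamini-Hochberg adjustment over 5 ratios, 0.972, 0.992, 0.972 and 0.972. The smallest p this test can give is 0.00794.

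Rhcg encodes a membrane channel for ammonia, through which collecting duct cells pass ammonia into the urine, and lies on chromosome 7 (79593363 to 79617657, minus strand). It stood at 115, 144, 123, 115 and 138 CPM in the KO kidneys and 133, 122, 107, 111 and 127 CPM in the WT kidneys. KO 14 and KO 18 were the highest, and WT 22 and WT 23 the lowest. The means were 126.8 ± 13.4 CPM in KO and 120.0 ± 10.7 CPM in WT (SD, n = 5 each), and the log2 fold change was 0.08 (SE 0.09). The predicted gene Gm45170, with 108 to 198 counts in kidney, overlaps it on the same strand.

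The 3 anion exchangers mark different intercalated cells. Slc4a1, the AE1 exchanger on chromosome 11 (102348824 to 102366203, minus strand), returns bicarbonate to the blood from type A cells and is also the band 3 protein of red cells. It stood at 48.8, 46.8, 37.5, 45.1 and 57.2 CPM in KO kidneys and 44.4, 47.7, 39.2, 38.6 and 53.6 CPM in WT kidneys, with the highest and the lowest value both in KO. The means were 47.1 ± 7.08 CPM in KO and 44.7 ± 6.23 CPM in WT (SD, n = 5 each), a log2 fold change of 0.07 (SE 0.12). The haemoglobin gene Hba-a1 stood at 334.6 to 687.9 CPM in KO kidneys and 492.0 to 673.6 CPM in WT kidneys. It reached 226.3 to 924.3 CPM in KO livers and 344.5 to 775.6 CPM in WT livers, where Slc4a1 was at most 0.967 CPM. In the kidneys Slc4a1 was at least 37.5 CPM, and the part of blood in that level was not tested.

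Slc26a4, the pendrin gene on chromosome 12 (31519827 to 31559969, minus strand), exchanges chloride for bicarbonate at the urine side of type B cells. It had the smallest p of the 10 genes. It stood at 116, 104, 107, 91.6 and 104 CPM in KO kidneys and 105, 99.8, 91.0, 75.1 and 104 CPM in WT kidneys. KO 13 was the highest and WT 23 the lowest of all kidneys, and the other values overlapped. The means were 104.5 ± 8.63 CPM in KO and 94.9 ± 12.4 CPM in WT (SD, n = 5 each). The log2 fold change was 0.14 (SE 0.10), a fold of 1.10 with a 95% interval of 0.953 to 1.27 (edgeR adjusted p = 0.9995).

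Slc4a9, the AE4 exchanger on chromosome 18, sits in type B cells at the side facing the blood. It stood at 115, 134, 113, 119.9 and 147 CPM in KO kidneys and 111, 129, 133, 156 and 109 CPM in WT kidneys. WT 23, the lowest kidney for Slc26a4, was the highest for Slc4a9. The means were 125.6 ± 14.3 CPM in KO and 127.5 ± 18.97 CPM in WT (SD, n = 5 each), with a log2 fold change of -0.02 (SE 0.11). The type B and type A exchangers were also set against each other within a library. The counts of Slc26a4 were 1.82 to 2.84 times those of Slc4a1 in KO kidneys and 1.93 to 2.36 times in WT kidneys. The mean log2 ratio differed by 0.07, KO minus WT (exact permutation p = 0.579, adjusted p over the 5 ratios 0.972).

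Among the regulators, Foxi1 on chromosome 11 (34204338 to 34208089, minus strand) is the forkhead factor that directs the cell type. It stood at 23.97, 31.2, 38.3, 19.5 and 39.95 CPM in KO kidneys and 30.3, 30.6, 27.5, 21.7 and 28.5 CPM in WT kidneys. KO 16 was the lowest of all kidneys and KO 15 and KO 18 the highest, so the WT values lay within the KO range. Among KO kidneys it varied most of the 10 genes, with a coefficient of variation of 28.9%, and the difference in spread from WT kidneys was not tested. The means were 30.6 ± 8.85 CPM in KO and 27.7 ± 3.60 CPM in WT (SD, n = 5 each), a log2 fold change of 0.14 (SE 0.17). Leaving out KO 18 gave 0.03 and leaving out KO 16 gave 0.26. Its interval, a fold of 0.855 to 1.43, was the widest of the 10.

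Dmrt2, on chromosome 19 (25672411 to 25678991, plus strand), encodes a transcription factor with a DM domain whose RNA marks type A cells. It had the lowest level of the 10, with 4.56, 6.40, 4.90, 5.67 and 5.86 CPM in KO kidneys and 5.20, 4.78, 4.47, 5.12 and 4.67 CPM in WT kidneys. KO 14, KO 16 and KO 18 lay above every WT kidney, and KO 13 and KO 15 lay among them. The means were 5.48 ± 0.743 CPM in KO and 4.85 ± 0.308 CPM in WT (SD, n = 5 each), with a log2 fold change of 0.18 (SE 0.13, unadjusted p = 0.204, edgeR adjusted p = 0.9995).

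Between genes, levels were compared per kilobase of exon. Rhcg was the highest of the 10, at 56.8 ± 6.01 CPM per kilobase in KO kidneys and 53.8 ± 4.81 CPM per kilobase in WT kidneys (SD, n = 5 each). Atp6v0a4 followed at 39.0 ± 7.26 in KO and 39.1 ± 5.40 CPM per kilobase in WT. Slc26a4 at 33.6 ± 2.78 in KO and 30.5 ± 3.98 CPM per kilobase in WT, and Atp6v1g3 at 32.1 ± 7.02 in KO and 32.5 ± 3.42 CPM per kilobase in WT, changed places between the groups, and their ranges overlapped within each. Below them came Atp6v1b1, Slc4a9, Atp6v0d2, Foxi1 and Slc4a1, in that order in both groups. Dmrt2 was the lowest, at 2.34 ± 0.318 in KO and 2.07 ± 0.132 CPM per kilobase in WT. In both groups the range of Rhcg lay above that of Atp6v0a4, that of Slc4a9 above Atp6v0d2, and that of Slc4a1 above Dmrt2. The range of Atp6v1b1 lay above that of Slc4a9 in KO kidneys and overlapped it in WT kidneys, and the other neighbours in the order overlapped in both groups. Foxi1 and Atp6v0d2, at 12.98 ± 3.75 and 13.3 ± 0.989 CPM per kilobase in KO kidneys, were not separated beyond their spread.

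**Figure D3:**
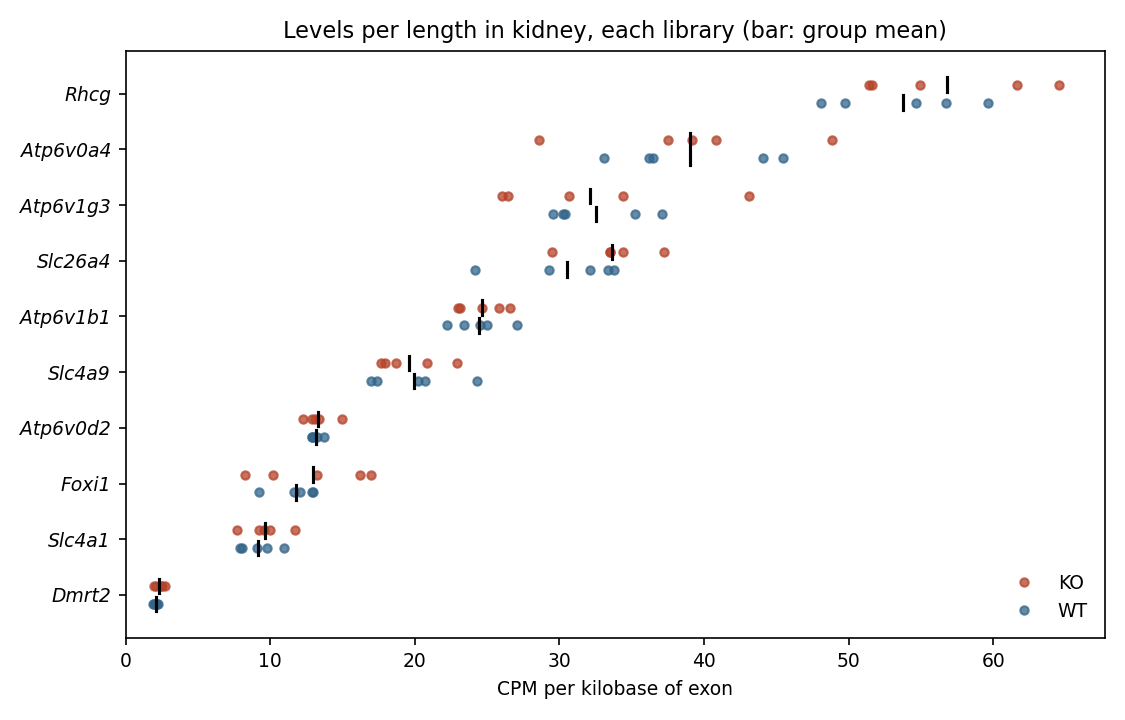
Level per kilobase of exon (horizontal axis, CPM per kilobase) of the 10 genes in kidney, with KO drawn above WT for each gene. Points are single kidneys and the short bar is the mean of 5. Rhcg is the highest and Dmrt2 the lowest in both groups, from 56.8 to 2.34 CPM per kilobase in KO kidneys and from 53.8 to 2.07 CPM per kilobase in WT kidneys.

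The genes did not all vary together from kidney to kidney. The mean of the centred log2 CPM of the 10 ran from -0.09 in KO 16 to 0.15 in KO 18, and from -0.12 in WT 23 to 0.06 in WT 19. The correlation of each gene with that mean over the 10 kidneys is a description only, since each gene is part of the mean. Rhcg followed it closely (Pearson r = 0.938) and Foxi1 less so (r = 0.761). Atp6v0a4 (r = -0.115) and Slc4a9 (r = 0.0339) did not follow it. By the same measure the 5 genes outside the 10 that were most like the mean, of all genes tested in kidney, were Pnkd (r = 0.949), Syt3 (r = 0.946), Kiss1r (r = 0.941), Efnb1 (r = 0.940) and Klc2 (r = 0.939). They are the extremes of 17269 genes over only 10 kidneys, and genes of 1 kidney share its library, depth and tissue makeup. Leaving out each kidney in turn gave r between 0.908 and 0.970 for the 5. Among the 18 other intercalated cell markers, the highest r was 0.874, for Insrr, the insulin receptor-related receptor that senses alkaline fluid. The lowest was -0.806, for P2ry14, a receptor for UDP-glucose. These are the extremes of that list, and its other genes lay between them.

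**Figure D4:**
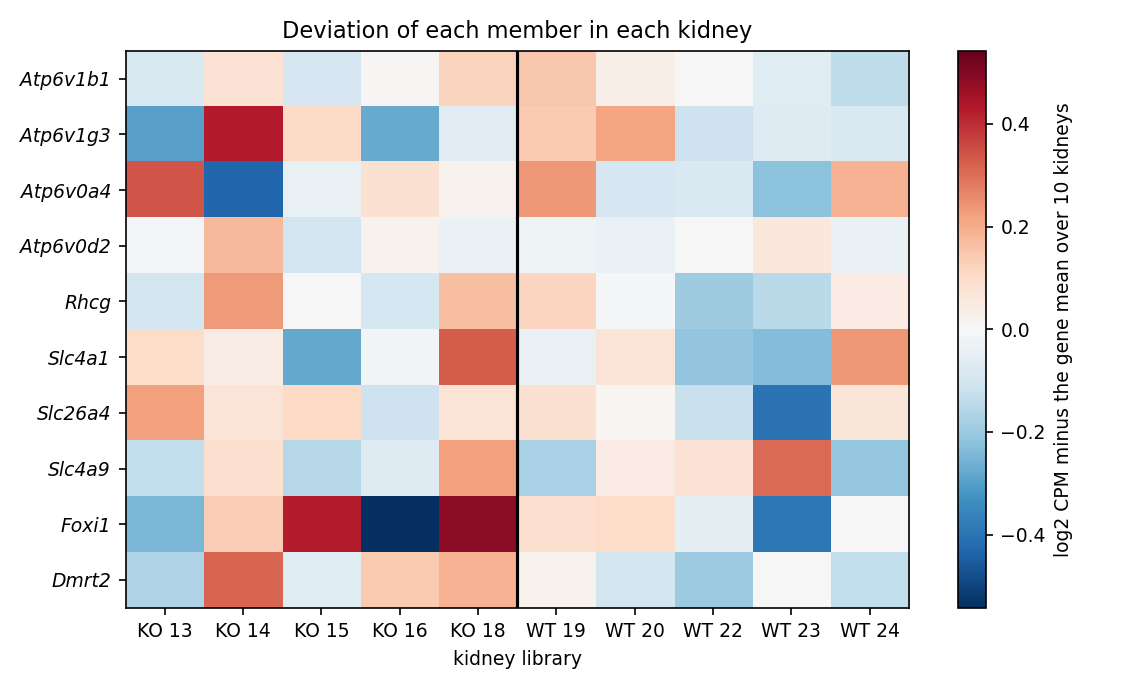
Deviation of each of the 10 genes from its own mean over all kidneys (colour, centred log2 CPM), with genes in rows and single kidneys in columns, KO columns left of WT columns. KO 14 is high for Atp6v1g3 and low for Atp6v0a4 while KO 13 is the reverse, and KO 16 and WT 23 are low for Foxi1.

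The surrounding pathway was looked at in the same fit. Of 21 further V-ATPase subunit and accessory genes, 20 were tested in kidney and 0 passed the threshold, with 8 higher and 12 lower in KO by sign and a median log2 fold change of -0.02. The general paralogs averaged 399.3 CPM in KO and 405.2 CPM in WT kidneys for Atp6v1b2, 175.6 and 179.0 CPM for Atp6v1g1 in KO and WT, and 120.8 and 127.8 CPM for Atp6v0d1 in KO and WT. Atp6v0a1 averaged 76.4 CPM in KO and 73.7 CPM in WT kidneys. The remaining paralogs had log2 fold changes of 0.22 for Atp6v1g2, -0.09 for Atp6v0a2 and 0.27 for Tcirg1, the a3 subunit best known from osteoclasts. Tcirg1 stood at 41.3 to 84.0 CPM in KO kidneys and 44.0 to 49.5 CPM in WT kidneys (unadjusted p = 0.0971, edgeR adjusted p = 0.9995).

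Of 18 other intercalated cell genes, all were tested, 0 passed the threshold, and 9 were higher and 9 lower in KO by sign, with a median log2 fold change of 0.01. Those with the smallest p were Aqp6, an intracellular water and anion channel of type A cells, and Insrr. Aqp6 stood at 56.9 to 92.5 CPM in KO kidneys and 59.5 to 65.7 CPM in WT kidneys (log2 fold change 0.16, SE 0.11, edgeR adjusted p = 0.9995). Insrr stood at 48.5 to 67.4 CPM in KO kidneys and 48.1 to 55.9 CPM in WT kidneys (log2 fold change 0.12, SE 0.10, edgeR adjusted p = 0.9995). For both genes the KO range was the wider and reached above the WT range. For Aqp6 the KO kidneys other than KO 18 reached at most 67.0 CPM. Leaving out 1 mouse gave Aqp6 a log2 fold change of 0.02 to 0.21. KO 18 held the highest value of all kidneys for Aqp6, Insrr and Tcirg1, as it did for Foxi1 and Slc4a1 among the 10 genes. Car2, the cytosolic carbonic anhydrase that supplies protons to the pump, averaged 347.5 ± 50.3 CPM in KO and 358.5 ± 20.4 CPM in WT kidneys (SD, n = 5 each) and was named outside the rule for naming genes, after its values were seen.

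Neighbouring cell types gave no called gene either. Among 9 tested genes of principal cells, the sodium- and water-handling neighbours of intercalated cells, 0 passed, and the summed level of the list was 771.4 to 1167 CPM in KO and 867.8 to 964.6 CPM in WT kidneys. The 2 with the smallest p were Elf5, with a log2 fold change of -0.19, and Aqp4, with 0.12. Among 8 genes of ammonia and bicarbonate handling in the proximal tubule, 4 were higher and 4 lower by sign and 0 passed. There the smallest p belonged to Car14 (log2 fold change 0.12) and Slc9a3, the apical sodium-proton exchanger (log2 fold change 0.11). Among 8 further proximal tubule genes, 0 passed, and 4 were higher and 4 lower by sign. The smallest p belonged to Slc34a1, the phosphate transporter, at 4722 to 5053 CPM in KO and 5517 to 6357 CPM in WT kidneys, with a log2 fold change of -0.25 (SE 0.08, unadjusted p = 0.00710, edgeR adjusted p = 0.9995). The groups did not overlap for it, where 0.562% of all 17269 genes in kidney had such groups. Slc34a1 lies on chromosome 13 (55398187 to 55415592, plus strand), the chromosome of the targeted gene H2afy (56073619 to 56136361, minus strand). The part of sequence linked to H2afy in this difference was not tested. The next smallest p belonged to Slc5a12, a lactate transporter, with a log2 fold change of 0.31 (SE 0.24, unadjusted p = 0.226, edgeR adjusted p = 0.9995).

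The remaining marker lists were checked for other cell types, and 0 of their genes passed in kidney. The sums of 6 tested thick limb and distal genes were 4453 to 6059 CPM in KO and 4434 to 6257 CPM in WT kidneys, with Trpm6 (log2 fold change 0.25) and Slc12a1 (0.13) nearest. Urothelial genes summed to at most 29.5 CPM in KO and 23.8 CPM in WT kidneys, with Upk1a (0.19) and Upk2 (0.27) nearest. Erythroid genes summed to 899.6 to 1700 CPM in KO and 1251 to 1787 CPM in WT kidneys, with Alas2 at a log2 fold change of -0.23 and Epb42 at 0.36. Macrophage and osteoclast genes summed to 134.0 to 143.6 CPM in KO and 142.5 to 150.8 CPM in WT kidneys, and all 6 tested were lower in KO by sign, with Ctsk at -0.15 and Acp5 at -0.09. Clec4f, the Kupffer cell lectin, had at most 3 counts in KO kidneys and 0 counts in WT kidneys, against at least 2054 counts in every liver. Hepatocyte genes summed to 132.5 to 161.9 CPM in KO and 100.2 to 161.7 CPM in WT kidneys, with Alb at a log2 fold change of 0.93 and Apoa1 at 0.88. Without KO 13 these were -0.15 for Alb and 0.25 for Apoa1. The part of these cell types in the values of the 10 genes was not tested.

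Liver, which has no intercalated cells, was the contrast. In raw counts over whole libraries, Atp6v1b1, Rhcg and Foxi1 had 0 counts in all 9 livers, and Atp6v1g3 had 1 count, in KO 13. A count of 0 over the group allows up to 3 counts, which is 0.0189 CPM in KO livers and 0.0245 CPM in WT livers. Against that floor, and scaled by library totals, Atp6v1b1 was at least 5747-fold higher in KO kidney than in KO liver and at least 4323-fold higher in WT kidney than in WT liver. Rhcg was at least 6763-fold higher in KO and at least 4843-fold higher in WT, and Foxi1 at least 1634-fold in KO and at least 1118-fold in WT. These bounds cover counting error only.

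The other genes gave low counts in liver. Atp6v0a4 had 5, 3, 4, 5 and 2 counts in KO livers 13 to 18 and 4, 3, 2 and 8 counts in WT livers 19, 20, 22 and 24. Slc4a1 had 8, 15, 19, 8 and 5 counts in KO livers and 10, 2, 8 and 25 counts in WT livers. Both overlapped between the groups and were too low for the filter of the liver fit. Atp6v0d2 was the highest of the 10 in liver, with 44, 26, 47, 51 and 30 counts in KO livers and 40, 35, 30 and 13 counts in WT livers. Kidney exceeded liver 29.4-fold in KO and 37.5-fold in WT for this gene. The macrophage and osteoclast list summed to 214.7 to 266.6 CPM in KO livers and 223.8 to 273.5 CPM in WT livers, and its part in the Atp6v0d2 counts was not tested.

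In the liver fit 3 of the 10 genes passed the filter and 0 of 3 passed the threshold, where the edgeR test called 0% of 14591 genes at an adjusted p under 0.05 and 4.17% at an unadjusted p under 0.05, none of them among the 3. Slc26a4 had 11, 16, 24, 8 and 15 counts in KO livers and 7, 10, 13 and 0 counts in WT livers, a log2 fold change of 0.95 (SE 0.58, unadjusted p = 0.128, edgeR adjusted p = 0.9998). WT 24 held the single count of 0, and without mouse 24 the log2 fold change was 0.58. Slc4a9 had 5, 11, 16, 12 and 7 counts in KO livers and 12, 13, 7 and 5 counts in WT livers, with a log2 fold change of 0.10 (SE 0.44), and Atp6v0d2 had one of 0.40 (SE 0.30), or 0.20 without mouse 24. The interval of Slc26a4 ran from 0.804-fold to 4.64-fold and that of Slc4a9 from 0.556-fold to 2.06-fold, both wider than any of the 10 in kidney.

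Dmrt2 was the exception in liver. It had 7, 1, 1, 7 and 4 counts in KO livers and 12, 17, 8 and 17 counts in WT livers, 20 counts in all against 54. Every KO liver lay below every WT liver, and Dmrt2 was the only one of the 10 with groups that did not overlap in liver, where 1.27% of 24511 genes with a count had such groups. Kidney exceeded liver 43.6-fold in KO and 10.5-fold in WT. Its counts were too low for the filter of the liver fit. With no filter the log2 fold change in liver was -1.79 (SE 0.61, unadjusted p = 0.00739, edgeR adjusted p = 0.937), and a single fit of all 19 libraries gave -1.80 (SE 0.41, edgeR adjusted p = 0.0881).

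**Figure D5:**
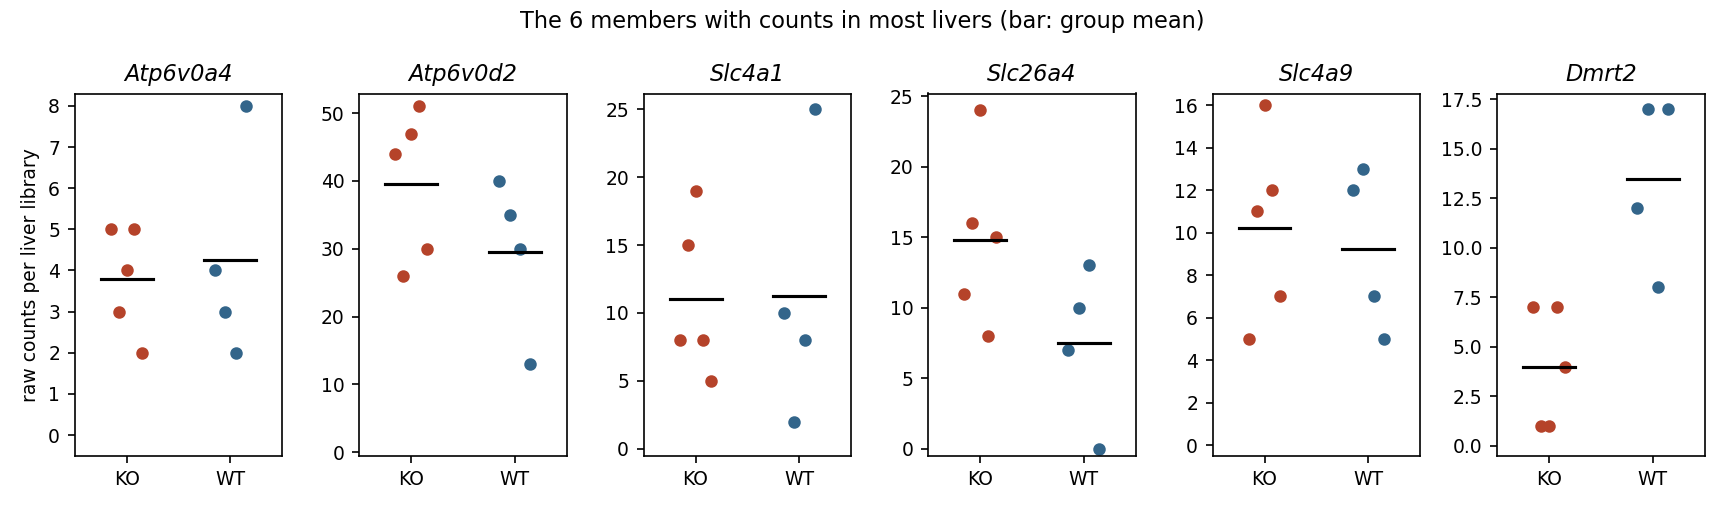
Raw counts in every liver (vertical axis, counts per library, from 0) of the 6 genes among the 10 with more than 1 count in any liver, with KO left of WT; each point is 1 liver. Dmrt2 alone has groups that do not overlap, with 1 to 7 counts in KO livers and 8 to 17 counts in WT livers.

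The last comparison asked whether the effect of the knockout differed between kidney and liver, tested as an interaction term over 18549 genes with all 19 libraries fitted together. Atp6v1b1, Rhcg and Foxi1, with 0 counts in every liver, and Atp6v1g3, with 1 count in KO livers, had no liver effect to compare. For these genes the test cannot tell whether the tissues differed. By edgeR 0 of the remaining genes of the 10 passed, where 0% of all genes were called at an adjusted p under 0.05 and 4.12% at an unadjusted p under 0.05. Dmrt2 was the only one of the remaining genes with an unadjusted p under 0.05. Its effect in kidney minus that in liver was 1.97 on the log2 scale (SE 0.47, 95% interval 0.996 to 2.94, unadjusted p = 0.000363, edgeR adjusted p = 0.668). DESeq2 gave the same size, 1.97, with an adjusted p of 0.0171, in a test that called 0.0593% of all genes, while limma voom gave 2.45 with an adjusted p of 0.403. Over all alternatives its adjusted p ran from 0.0171 to 1, so the call rests on the tool. The differences for Slc26a4, at -0.80 (unadjusted p = 0.0703), and Atp6v0d2, at -0.37 (unadjusted p = 0.137), did not pass (edgeR adjusted p = 0.9999). Without mouse 24 they were -0.42 for Slc26a4 and -0.19 for Atp6v0d2. Those of Atp6v0a4, Slc4a1 and Slc4a9 were 0.20, 0.17 and -0.13, with the same edgeR adjusted p.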

How the data were processed

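Per the labels, poly(A)-selected RNA of homogenized whole kidney and liver was sequenced. The deposited table holds the authors' raw counts per gene, not normalized, for 26506 genes in 19 libraries, each gene summing to at least 10 counts. Trim Galore, STAR, featureCounts, DESeq2 and the build GRCm38 are named in the submitters' processing notes, without versions. Identifiers were matched to GENCODE mouse release 21, which gave symbols, positions and exon lengths for 26417 genes, while 89 stayed unmatched.

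Genotypes were compared within a tissue over all genes by edgeR's quasi-likelihood test (edgeR 4.0.16, R 4.3.3), using robust dispersions, TMM scaling, filterByExpr at a minimum count of 10 and Benjamini-Hochberg adjustment at a threshold of 0.05. The fits left 17269 genes in kidney, 14591 in liver and 18549 for the difference between tissues. Intervals are 95%, ratios used counts plus 0.5, and log2 CPM used a prior count of 2. With 25919138 to 35131720 counts in kidney libraries, the median SE of a log2 fold change was 0.13, and that of the 10 genes ran from 0.08 to 0.17.

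The 10 genes and the 15 lists, with 108 of 109 genes in the table, were chosen with earlier results of these data known. The rule named the 10 genes, H2afy, Alb, Umod, the paralogs of the 4 pump subunits, from each other list the 2 genes with the smallest p in kidney when none passed, and the 5 genes most like the mean of the 10. Genes outside it are said to be so, or are Hba-a1, P2ry14, Clec4f, Unc5a and the overlapping genes, named after their values were seen. Alternatives were DESeq2 1.42.0, limma 3.58.1 voom, other scalings and filters, a replicate block and leaving out mice.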

Additional observations from a re-analysis of the deposited data

Results flagged for a closer look

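A single count of Atp6v1g3 in the liver of KO 13, or 0.0299 CPM, lay apart from the 4 other KO livers, which had 0 counts. In groups of 4 to 10 samples, chance alone sets about 1 in 20 groups apart by this measure of gap over range, and 33 groups were looked at. With a single count among zeros the gap equals the whole range, so that rate does not apply here. Nothing is concluded from this count.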

How the results depend on the processing

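Of the 10 genes, 0 passed in kidney under all 19 alternatives, and their adjusted p in kidney stayed between 0.878 and 1. In liver 0 passed under all 18 alternatives. There the result covers only genes that passed the filter of a fit, 3 of the 10 in the main fit. For the difference between tissues 18 of 19 alternatives called 0, and DESeq2 called 1, Dmrt2. Atp6v1b1, Atp6v1g3, Rhcg and Foxi1 had no liver effect to compare there. The count over all genes depended more on the setting. In kidney, where edgeR called 1, the netrin receptor gene Unc5a, DESeq2 called 15, limma voom 4, no filter 4, 1 fit of all libraries 3, and the fit without mice 16 and 24, a pair known from earlier results to move counts, 12. In liver, where edgeR called 0, these gave 42, 5, 3, 21 and 11. For the difference, DESeq2 called 11 and the fit without mice 16 and 24 called 4, against 0. Leaving out 1 mouse gave 1 to 10 genes in kidney, 0 to 7 in liver and 0 to 3 for the difference. Kidney gave 10 without KO 16, 7 without WT 24 and 2 without KO 13, 14, 15 or 18. Liver gave 7 without KO 16, 5 without WT 24 and 1 without KO 13, and the difference 3 without KO 16 and 1 without KO 14 or WT 24.

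The signs of several log2 differences, none of them called, turned. With library totals these were Atp6v1g3 (0.0142), Atp6v0a4 (0.0237), Slc4a9 (0.0017), Atp6v1b2 (0.0065) and Atp6v1g1 (0.0014) in kidney. With limma voom they were Atp6v1b1 (-0.0086), Slc4a1 (-0.0092), Atp6v1g1 (0.0188) and Atp6v0a1 (-0.0296) in kidney, and Atp6v0a4 (-0.0591) and Slc4a1 (-0.766) for the difference. A filter of 1 CPM gave Atp6v0a4 0.001, and removing mitochondrial and haemoglobin genes gave 0.005. Without mice 16 and 24, kidney values were 0.0199 for Atp6v1g3, -0.0208 for Atp6v1b1, 0.0277 for Atp6v0a4, 0.006 for Atp6v1b2 and -0.0321 for the B1 to B2 ratio. That fit gave Slc4a9 -0.131 in liver and 0.0501 for the difference, where Atp6v0a4 had -0.210 and Slc4a1 -0.671. The causes were not tested.

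Leaving out 1 mouse turned further signs. In kidney the ranges were -0.148 to 0.0488 for Atp6v1g3, -0.0267 to 0.0474 for Atp6v0d2, -0.0204 to 0.051 for Atp6v1b1, -0.0964 to 0.0898 for Atp6v0a4, -0.005 to 0.148 for Slc4a1 and -0.0841 to 0.0597 for Slc4a9. The paralogs gave -0.0734 to 0.0315 for Atp6v1b2, -0.0937 to 0.0499 for Atp6v1g1 and -0.0466 to 0.0959 for Atp6v0a1. The ratios gave -0.0305 to 0.0704 for B1 to B2, -0.0501 to 0.0737 for G3 to G1, -0.131 to 0.0271 for a4 to a1 and -0.0134 to 0.147 for Slc26a4 to Slc4a1. Slc4a9 ran from -0.0701 to 0.325 in liver. For the difference, Atp6v0a4 ran from -0.317 to 0.451, Slc4a1 from -0.600 to 0.536, Slc4a9 from -0.345 to 0.09, and Dmrt2 from 1.66 to 2.29.

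The labels do not state that a kidney and a liver of the same number came from 1 mouse. The main fit of the difference did not pair them. Deviations of same-numbered libraries had a correlation over 0.1 in 7 of 9 pairs (0.0827 to 0.416 over all 9). The library of the same number was the best match in 7 of 9 cases, so the numbers went with likeness between tissues in most pairs. With the replicate block 0 genes were called for the difference, and that of Dmrt2 was 1.97 (edgeR adjusted p = 1).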
